A study of Mus musculus with 29 samples.

Results

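Bone marrow of mice that carry the leukaemia fusion MLL-ENL-ERtm, taken in a state labelled transition, was set against bone marrow of wild-type mice. The members are 8 of the 29 arrays of the series, 4 titled as transition marrow and 4 as wild-type marrow. MLL-ENL joins the histone methyltransferase MLL (Kmt2a) to ENL (Mllt1), and the ERtm tail is an altered hormone-binding region taken from the estrogen receptor that makes the fusion depend on tamoxifen. The transition mice had eaten tamoxifen in the chow (300 mg/kg) for 7 to 8 months and had a myeloproliferative disease, with less cell division and more DNA damage response (DDR) signalling per the labels. The wild-type mice had eaten the same chow, wild type 1 for 8 months and wild type 2, 3 and 4 for 7 months. All groups thus shared tamoxifen, and a group without it was not analysed here. The strain, the sex and the promoter and cell types that express the fusion are not given in the sources used here. The labels call the arrays biological replicates, so p-values measure the spread between these marrow samples, whole primary tissue of mixed cell types. Proliferation marrow (MLL-ENL-ERtm, 7 months of the same chow, 4 arrays) and senescence marrow (MLL-ENL-ERtm, 8 months, 3 arrays) entered the fit, and their values are given for a few of the genes described.

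Fusions of MLL keep the part of the protein that finds its target genes, and ENL brings factors that promote transcript elongation. The Hoxa cluster and the cofactor Meis1 are the best known targets, which keep immature blood cells dividing. Oncogene activity can stall DNA replication, which activates the kinases ATM and ATR, then the checkpoint kinases and p53, and cells that stop dividing in this way may enter senescence and release inflammatory chemokines and cytokines. The comparison asked which of these groups of genes stood apart from wild type in the transition state, and how the cell types of the marrow were represented.

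Levels are log2 values from a 22690-probe-set array, so that a difference of 1 is a doubling, and each gene was read from its brightest probe set (12394 genes). Array medians among the 8 arrays lay between 8.11 and 8.29 and correlations between arrays between 0.967 and 0.995. Granulocyte genes that define marrow were high everywhere, with the myeloperoxidase gene Mpo between 14.65 and 15.07. Of the 8 arrays, 3 stood apart. Transition 1 had the least negative B cell values and no monocyte excess among the transition arrays, transition 4 the lowest erythroid and cell cycle levels, and wild type 2 the lowest B cell and the highest platelet and stroma levels of its group. The difference between the 3' and 5' probe sets of Gapdh, which grows as RNA degrades, was 1.87 in transition 1, 1.18 to 1.36 in the other transition arrays and 1.57 to 1.83 in wild type. Xist, expressed from the inactive X of females, was high in 4 of 4 transition arrays and in 2 of 4 wild-type arrays (wild type 3 and 4). The main counts are given below with and without some single arrays, and values without 1 array are added for many of the lists. Of the 52 genes counted below, 19 passed with the Gapdh difference as a covariate and 28 with the Xist level as one.

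Transition marrow differed from wild type in 52 of 12394 genes (limma, adjusted p under 0.05), or 0.420% of those tested. Of these, 23 were higher (0.186%) and 29 lower (0.234%), and 42 differed at least 2-fold, 20 upward and 22 downward. The chemokine genes Ccl3 and Cxcl2 and the homeobox gene Hoxa10 had the largest rises, followed by Nrg4, Ripk4 and Esr1, and genes of the B cell lineage led the fall. In all 52 the 4 transition arrays did not overlap the 4 wild-type arrays. The 52 were chosen by a test on these same arrays, so this is no separate support for them. Over all genes every transition array lay above every wild-type array in 1.90% and below in 1.90%. The median difference over all genes was 0.04. Without transition 1 the count was 664, or 5.36% (510 higher, 154 lower), and included all 52. Without wild type 2 it was 74 (22 higher, 52 lower). Without transition 3 it was 28, without transition 4 it was 25, without wild type 3 it was 21 and without wild type 4 it was 27. For 8 of the genes that rose, the wild-type mean lay under 7.23, which is 1 above the average lower quartile of the arrays, and for 15 of those that fell the transition mean did. Near this level the array distinguishes little signal from background, and these differences are bounded by it. The 8 risen genes concerned were Ccl3, Hoxa10, Nrg4, Ripk4, Esr1, Ptgs2, Hoxa5 and Depdc7.

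**Figure D1:**
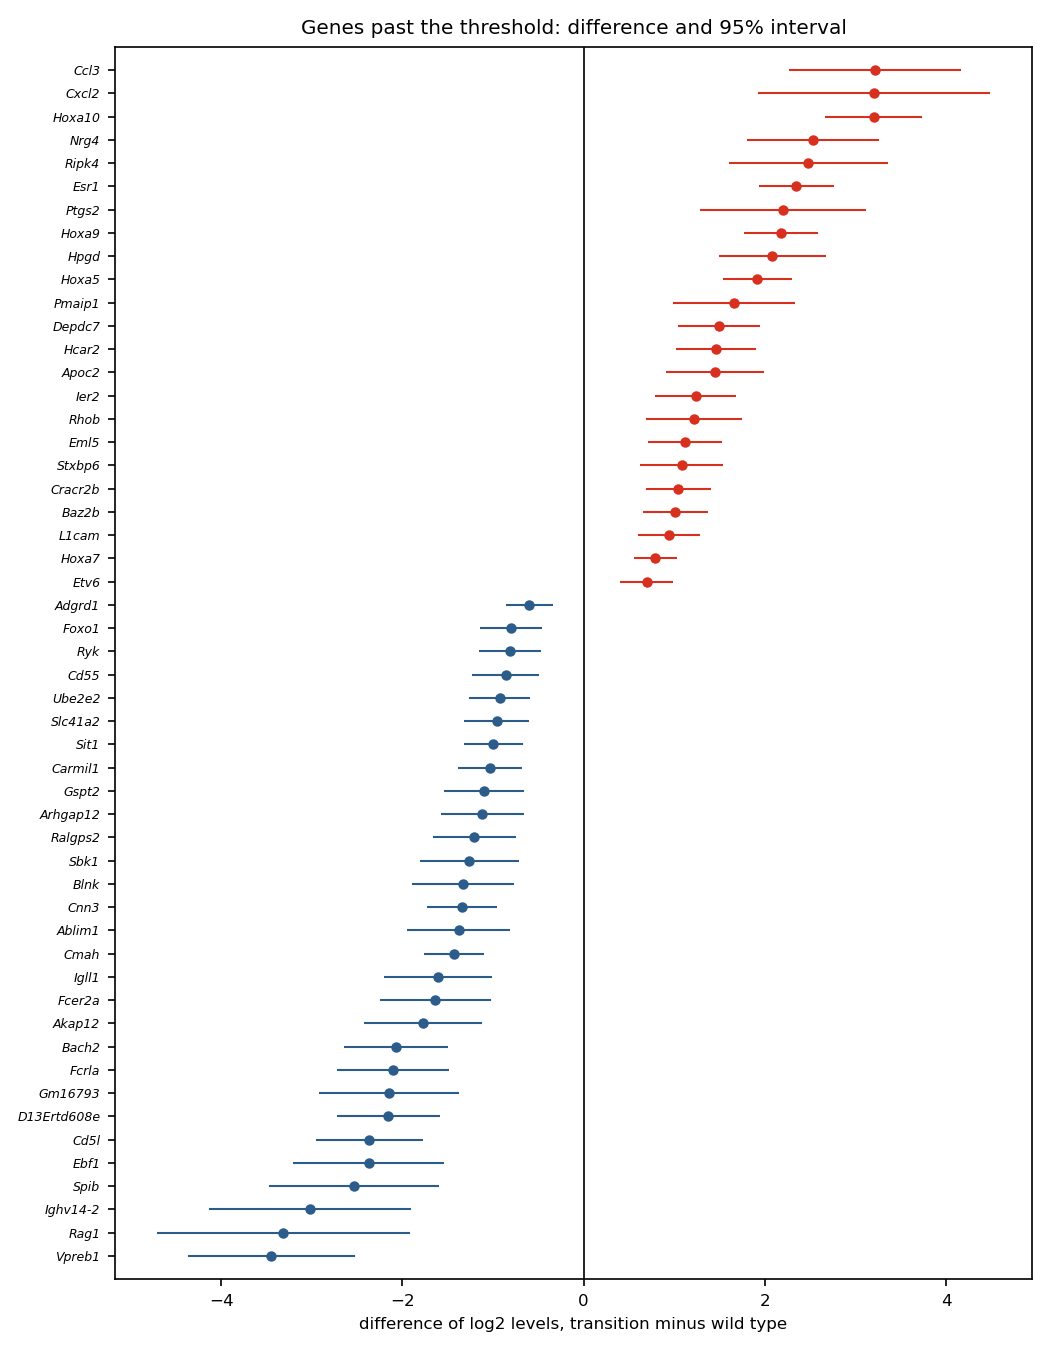
Difference of log2 levels, transition minus wild type (x axis), with its 95% confidence interval for each of the 52 genes past the threshold (y axis, ordered by difference). Points in red are higher in transition and points in blue lower, from 3.22 for Ccl3 down to -3.45 for Vpreb1, and no interval reaches 0.

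Esr1, the estrogen receptor gene, whose domain is part of the transgene, stood at 8.54, 8.18, 8.49 and 8.35 in transition 1 to 4 and at 5.60, 5.75, 6.65 and 6.18 in wild type 1 to 4. The groups were far apart, with a rise of 2.35 ± 0.19 (difference ± SE, 5.08-fold, adjusted p = 3.28e-05). Whether this probe set reads the domain within the transgene or the mouse's own Esr1 was not tested. Kmt2a (0.01 ± 0.16, adjusted p = 0.99) and Mllt1 (0.23 ± 0.15, adjusted p = 0.65), the genes joined in the fusion, had values that overlapped between groups.

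In 4 Hoxa genes every transition array lay above every wild-type array, against 1.90% of all genes. Of 9 measured members of the cluster 4 passed the test, all higher (Hoxa5, Hoxa7, Hoxa9 and Hoxa10), against 0.186% of all genes, and the median over the 9 was 0.31 with 6 of them near background in at least 1 group. Hoxa10, a homeobox factor of myeloid progenitors, stood at 9.32, 10.19, 9.21 and 9.22 in the transition arrays and at 6.24, 6.59, 6.33 and 5.95 in wild type. Its rise of 3.20 ± 0.25 was 9.22-fold (adjusted p = 3.23e-05), with transition 2 the highest. Hoxa9, the factor most tied to MLL leukaemia, was already high in wild type, at 10.81, 10.96, 10.86 and 11.30, and reached 12.76, 13.61, 13.18 and 13.08 in transition. That is a rise of 2.18 ± 0.19 (adjusted p = 4.97e-05). A second Hoxa9 probe set gave a smaller difference of 0.79 ± 0.11. Hoxa5 rose by 1.92 ± 0.18 (adjusted p = 8.10e-05), from 7.22, 6.86, 6.94 and 6.76 to 8.79, 9.09, 8.75 and 8.82. Hoxa7 rose by 0.79 ± 0.11 (adjusted p = 0.0035), with 4 transition values between 9.04 and 9.31 and 4 wild-type values between 8.19 and 8.45. Hoxa2, at 0.31 ± 0.12 (adjusted p = 0.41), had overlapping groups at levels under 5.7, near background. Hoxa5, Hoxa7, Hoxa9 and Hoxa10 kept their call in each of the 8 fits with 1 array left out.

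Other known MLL targets did not pass. Of 22 measured targets and cofactors outside the cluster 0 did by limma, with a median of 0.17. At an unadjusted p under 0.05, 1 was higher and 1 lower (6.65% and 3.81% of all genes). Meis1, the partner of Hoxa9, was above every wild-type array in each transition array, at 9.17, 9.75, 9.44 and 8.94 against 8.55, 8.74, 8.47 and 8.60. Its difference of 0.74 ± 0.19 had an adjusted p of 0.15, and without transition 1 it passed (0.79 ± 0.21, adjusted p = 0.0424). Zfp521, a zinc finger factor of progenitors (-0.66 ± 0.28), the menin gene Men1 (0.30 ± 0.15) and Myc (0.47 ± 0.28) had adjusted p of 0.42, 0.51 and 0.61. Jmjd1c, a histone demethylase gene, passed only without transition 1 (0.46 ± 0.12, adjusted p = 0.0424).

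**Figure D2:**
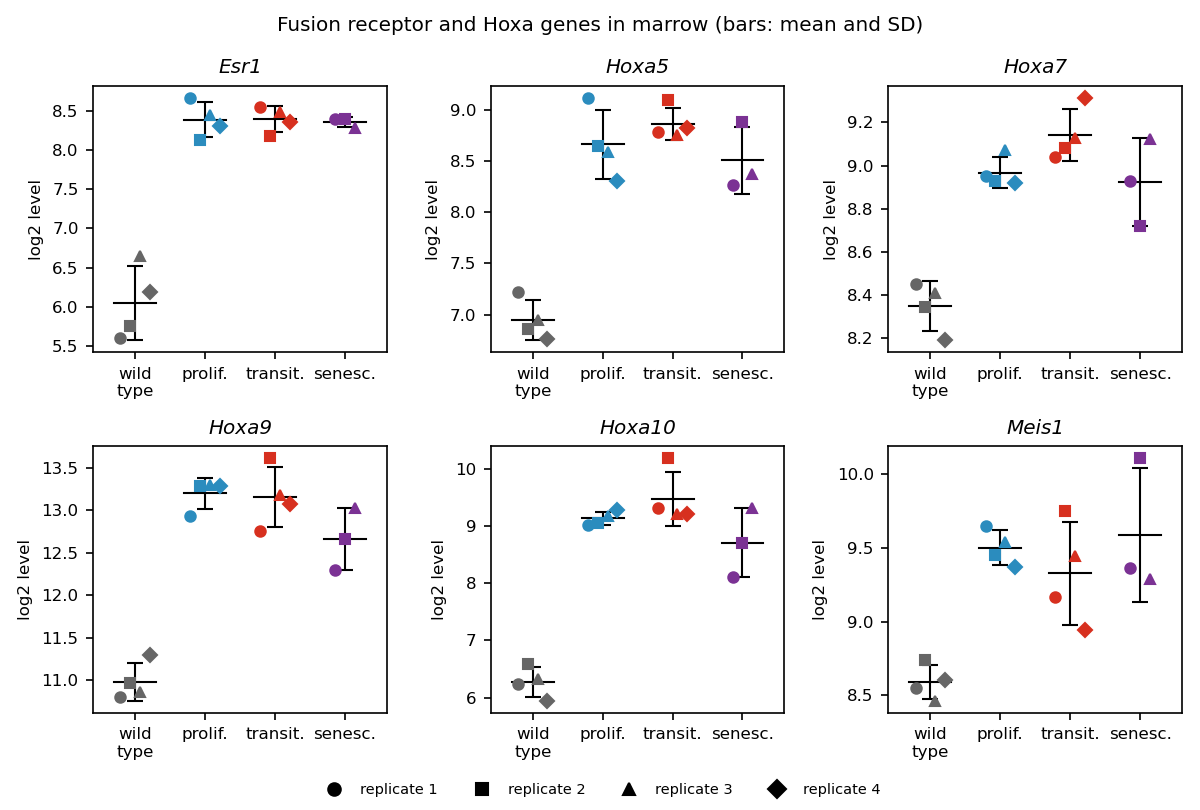
Log2 level (y axis) of Esr1, Hoxa5, Hoxa7, Hoxa9, Hoxa10 and Meis1 in each marrow array of the 4 states (x axis). Symbols mark the replicate number, and horizontal and vertical bars the mean and SD. The transition arrays lie above all wild-type arrays in each panel, as with Esr1 between 8.18 and 8.54 against 5.60 to 6.65.

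Among inflammatory ligands Ccl3 and Cxcl2 rose, by about as much as Hoxa10. Ccl3, a chemokine (MIP-1 alpha) that draws monocytes and restrains stem cells, stood at 11.21, 9.30, 9.29 and 9.39 in transition 1 to 4 and at 5.83, 6.59, 6.94 and 6.97 in wild type. Transition 1 was highest, the other 3 transition arrays lay close together, and the groups were 2.32 apart. Ccl3 rose by 3.22 ± 0.44, or 9.3-fold (adjusted p = 0.00304), and by 2.75 ± 0.36 without transition 1 (adjusted p = 0.00223). Its wild-type mean of 6.58 lay near background, which bounds the difference. Cxcl2, a chemokine (MIP-2) that attracts neutrophils, stood at 12.86, 9.54, 10.24 and 10.66 in transition and at 8.41, 8.11, 7.00 and 6.94 in wild type. Again transition 1 was highest, and the lowest transition array exceeded the highest wild-type array by 1.13. Its rise of 3.21 ± 0.60 was 9.25-fold (adjusted p = 0.0293), and it was 2.53 ± 0.46 without transition 1 (adjusted p = 0.013). In that fit Hoxa10 (3.26 ± 0.28), Ripk4 (2.91 ± 0.34) and Nrg4 (2.89 ± 0.29) had larger differences than both chemokines. Cxcl2 missed the threshold without transition 3, transition 4, wild type 3 or wild type 4 (adjusted p 0.0552 to 0.13), while Ccl3 kept its call whichever array was left out.

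The RefSeq windows of 250 bases before the annotated starts of both genes (GRCm38.p6) are shown because these are the ligands that rose. Capitals mark matches on either strand to an NF-kB motif, spelled GGG, then any 3 bases, then TTCC. Cxcl2 lies at chr5:90903649-90903898 on the forward strand and Ccl3 at chr11:83649379-83649628 on the reverse strand.
Cxcl2: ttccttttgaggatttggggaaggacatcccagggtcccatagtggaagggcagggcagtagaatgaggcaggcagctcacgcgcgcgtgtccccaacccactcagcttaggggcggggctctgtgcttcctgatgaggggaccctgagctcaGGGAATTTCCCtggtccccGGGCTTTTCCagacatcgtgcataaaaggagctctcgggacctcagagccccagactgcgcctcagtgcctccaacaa
Ccl3: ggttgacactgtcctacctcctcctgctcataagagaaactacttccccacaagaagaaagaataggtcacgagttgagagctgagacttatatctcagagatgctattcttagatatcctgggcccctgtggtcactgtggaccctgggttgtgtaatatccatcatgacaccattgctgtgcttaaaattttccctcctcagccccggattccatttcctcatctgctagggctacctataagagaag
The Cxcl2 window held 2 runs of matching letters, of which the first begins at position -97 from the start. The Ccl3 window held 0. Of all genes on the array with a window, 590 of 9888 (5.97%) held the letters, and of the 18 risen genes with one Cxcl2 alone did (5.56%), a share near that of all genes. The AP-1 letters TGANTCA were in 6.84% of all windows' genes and in 0 of these 18. The matches describe letters, not binding.

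Other cytokine genes differed less and did not pass. Of 35 measured chemokine and cytokine genes 2 passed, both higher and named above, against 0.186% of all genes. The median was 0.11, with 18 near background. Without transition 1, 6 passed, all higher (Ccl3, Ccl6, Ccl9, Cxcl2, Il1rn and Il15, against 4.11% of all genes), and the median was 0.055. Ccl4, the neighbouring chemokine MIP-1 beta, stood at 9.27, 8.24, 8.38 and 8.46 in transition and at 7.80, 8.01, 7.93 and 7.92 in wild type, without overlap (0.67 ± 0.19, adjusted p = 0.19). Tnf had 10.22, 8.70, 8.60 and 9.48 against 8.02, 8.55, 8.47 and 8.53, also without overlap (0.86 ± 0.28, adjusted p = 0.29). Both were highest in transition 1, as Ccl3 and Cxcl2 were. Il1b, at 11.67 to 12.60 in transition and 10.86 to 12.24 in wild type, overlapped through wild type 2 (0.65 ± 0.28, adjusted p = 0.44). Il6, the cytokine most often named in senescence, stayed near background, between 4.82 and 6.42 (0.26 ± 0.28, adjusted p = 0.82). Ccl9, a chemokine of myeloid cells, was abundant and lower in transition 1 than in the others, at 12.77, 13.71, 13.81 and 13.72 against 12.79, 12.64, 12.35 and 12.35. It missed the threshold (0.97 ± 0.24, adjusted p = 0.12) and passed without transition 1 (1.21 ± 0.20, adjusted p = 0.00876).

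Receptors of these ligands did not pass, 0 of 24 by limma, though 12 were higher and 2 lower at an unadjusted p under 0.05 (over all genes 6.65% and 3.81%), with a median of 0.43. Cd14, which presents endotoxin to Toll-like receptor 4, stood at 11.20, 10.42, 12.38 and 10.64 in transition and 9.84, 10.08, 9.49 and 9.15 in wild type. Its groups did not overlap (1.52 ± 0.38, adjusted p = 0.14). Ccr7, which guides lymphocytes and dendritic cells to lymph nodes, was lower in each transition array (-1.37 ± 0.28, adjusted p = 0.057) and passed without transition 1 (-1.61 ± 0.27, adjusted p = 0.00898) or without wild type 2. Without transition 1, 5 receptor genes passed as higher as well, namely Cx3cr1, Csf1r, Csf2ra, Csf3r and Tlr6, against 4.11% of all genes. Among 21 genes of the NF-kB system 0 passed by limma and the median was 0.16. Rel, a subunit of the factor, had 7.85 to 8.06 in transition and 7.35 to 7.53 in wild type (0.48 ± 0.12, adjusted p = 0.15), Nfkbiz, an inducible co-regulator, 0.86 ± 0.25 (adjusted p = 0.21), and Cd83, an activation marker of B and dendritic cells, -0.77 ± 0.21 (adjusted p = 0.18). Ikbkb of this list passed as higher without transition 1, where 4.11% of all genes did, and the list median was 0.15.

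Ptgs2 and Hpgd, which act at the start and the end of the prostaglandin pathway, both rose. Ptgs2, the inducible cyclooxygenase that starts prostaglandin synthesis, stood at 8.89, 5.85, 7.45 and 6.81 in transition and at 5.12, 5.18, 5.17 and 4.73 in wild type. All wild-type values were at background, and the transition arrays spread widely, with transition 2 lowest and transition 1 highest. The rise was 2.20 ± 0.43 (adjusted p = 0.04), and the other Ptgs2 probe set, also dim, gave 0.24 ± 0.14 (difference ± SE). Ptgs2 missed the threshold without transition 3, transition 4, wild type 1, wild type 2, wild type 3 or wild type 4 (adjusted p 0.0577 to 0.15). Hpgd, the dehydrogenase that inactivates prostaglandins, was abundant in all arrays, at 12.83, 13.77, 13.73 and 13.84 in transition and 11.53, 11.57, 11.62 and 11.13 in wild type. It rose by 2.08 ± 0.27, 4.24-fold (adjusted p = 0.00247), with transition 1 lowest among the transition arrays, and kept its call in each of the 8 fits with 1 array left out. Of 19 measured genes of the pathway these 2 passed, where 0.186% of all genes passed as higher, and the median was -0.04. Without transition 1 Lta4h passed as well, where 4.11% of all genes passed as higher, and the median was 0.11. The prostaglandin receptor gene Ptger3 (-1.34 ± 0.37, adjusted p = 0.19) and the platelet lipoxygenase gene Alox12 (-2.08 ± 0.71, adjusted p = 0.31) lay below wild type in all transition arrays. Hcar2, the niacin and beta-hydroxybutyrate receptor of myeloid cells, stood at 10.38, 9.83, 9.55 and 9.93 against 8.52, 8.80, 8.48 and 8.05. It rose by 1.46 ± 0.21 (adjusted p = 0.0035) and kept its call whichever array was left out.

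Immediate early genes, which respond within minutes to growth factors and stress, were mostly higher. Of 32 measured members 29 were higher and 2 passed (0.186% of all genes passed as higher). At an unadjusted p under 0.05, 15 were higher and 1 lower (6.65% and 3.81% of all genes), and the median was 0.71 against 0.04 over all genes. Ier2 stood at 13.71, 13.18, 12.84 and 13.51 in transition and at 12.09, 12.48, 11.84 and 11.87 in wild type, a rise of 1.24 ± 0.21 (adjusted p = 0.0149). Rhob, a small GTPase induced by stress, stood at 13.10, 12.50, 11.74 and 12.27 against 11.37, 11.20, 11.00 and 11.17, a rise of 1.22 ± 0.25 (adjusted p = 0.0481). Neither overlapped, and in both transition 1 was highest and transition 3 lowest of the transition arrays. Ier2 missed the threshold without transition 4, wild type 3 or wild type 4 (adjusted p 0.0564 to 0.0652) and Rhob without transition 2, transition 4, wild type 1, wild type 2, wild type 3 or wild type 4 (0.0787 to 0.18). Zfp36, whose protein destabilises cytokine transcripts, stood at 13.91, 12.89, 11.94 and 12.88 against 11.80, 11.51, 11.20 and 11.09 (2.84-fold, adjusted p = 0.0712). It passed without transition 1 (adjusted p = 0.0329) or without transition 3 (adjusted p = 0.0151). Junb, a subunit of AP-1, had 1.48 ± 0.39 (adjusted p = 0.16) and passed without transition 3 (adjusted p = 0.0446). Ier5 had 0.72 ± 0.19 (adjusted p = 0.15). The mean of the list over wild type was 1.17 in transition 1, 0.57 in transition 2, 0.21 in transition 3 and 0.63 in transition 4. The inducible heat shock genes Hspa1b and Hspa1a, which tissue handling can raise, were high in transition 1 as well. Hspa1b stood at 10.49 there, against 7.39 to 8.03 in the other transition arrays and 7.59 to 8.19 in wild type (0.66 ± 0.48, adjusted p = 0.69). Hspa1a likewise stood at 8.12 against 6.06 to 6.60 in the other 7 arrays. The list of 11 had 0 genes past the threshold by limma, 0 at an unadjusted p under 0.05 and a median of 0.08. The part of handling in the immediate early and chemokine values was not tested, and without transition 1 the immediate early list had 7 genes past the threshold (4.11% of all genes were higher there), with a median of 0.50.

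**Figure D3:**
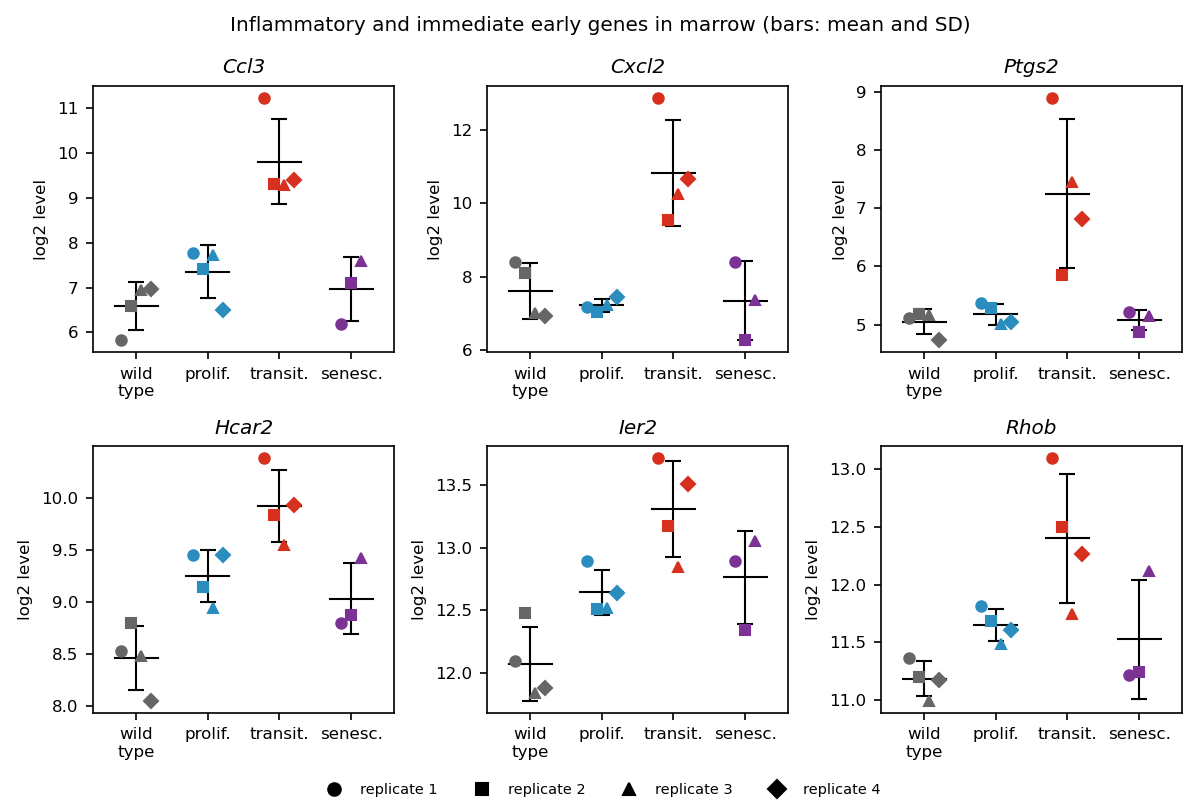
Log2 level (y axis) of Ccl3, Cxcl2, Ptgs2, Hcar2, Ier2 and Rhob in each marrow array of the 4 states (x axis), with symbols for the replicate number and bars for the mean and SD. The 4 transition arrays lie above every wild-type array, with transition 1 the highest, and for Ccl3 they lie above every array of the other states, at 9.29 to 11.21.

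Against the other MLL-ENL-ERtm states, 0 genes passed in either comparison by limma (266 genes, 2.15%, at an unadjusted p under 0.05 in transition against proliferation and 380, 3.07%, in senescence against transition). The chemokines and Ptgs2 had the smallest p in both. Ccl3 stood at 7.77, 7.42, 7.73 and 6.50 in proliferation 1 to 4 and at 6.20, 7.10 and 7.59 in senescence 1 to 3. Transition minus proliferation was 2.45 ± 0.44 (adjusted p = 0.42) and senescence minus transition -2.83 ± 0.48 (adjusted p = 0.40). Cxcl2 stood at 7.17, 7.04, 7.23 and 7.45 in proliferation and at 8.40, 6.27 and 7.37 in senescence, with differences of 3.60 ± 0.60 (adjusted p = 0.33) and -3.48 ± 0.65 (adjusted p = 0.53). For both genes every transition array lay above every array of the other states. Ptgs2 stood at 5.38, 5.29, 5.01 and 5.05 in proliferation and at 5.21, 4.88 and 5.16 in senescence, at the background level of wild type. Its differences were 2.07 ± 0.43 and -2.17 ± 0.46 (adjusted p = 0.9999 and 1.00). By contrast Hoxa9 had -0.04 ± 0.19 and -0.50 ± 0.21, and Esr1 0.01 ± 0.19 and -0.04 ± 0.21. Nrg4 (0.94 ± 0.34 and -1.64 ± 0.37) and Ripk4 (1.60 ± 0.41 and -1.58 ± 0.45) were highest on average in transition, with none of these differences past the threshold. Klk1b27, a kallikrein gene, was among the 5 smallest p in transition against proliferation (1.07 ± 0.24). Its transition values, 7.36 to 8.30, were at the wild-type level, 7.34 to 8.17, and proliferation was lower at 6.34 to 7.15. Ttc39b, which has a role in lipid handling, was among the 5 smallest p in senescence against transition (0.84 ± 0.18). The comparisons share the transition arrays, and their values are set side by side only.

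The p53 pathway showed 1 gene past the threshold among 27 measured, where 0.186% of all genes passed as higher. Pmaip1, the proapoptotic BH3-only gene Noxa, stood at 10.62, 10.73, 10.35 and 10.44 in transition and at 8.87, 8.34, 9.10 and 9.19 in wild type. The transition arrays lay close together and at least 1.16 above wild type, a rise of 1.66 ± 0.31 or 3.16-fold (adjusted p = 0.0313). It missed the threshold without transition 2, transition 3, transition 4, wild type 1, wild type 2, wild type 3 or wild type 4 (adjusted p 0.0563 to 0.10), at differences of 1.48 to 1.77. In proliferation it stood at 10.04, 10.83, 9.69 and 10.08 and in senescence at 8.63, 9.14 and 10.29, so that proliferation overlapped transition. Plk3, a stress kinase, had 10.28, 8.72, 9.29 and 8.85 against 8.44, 8.53, 8.07 and 7.71 (1.10 ± 0.28, adjusted p = 0.15). Cdkn1a, the p53 target p21 that halts the cycle, overlapped (0.50 ± 0.20, adjusted p = 0.41), as did the repair gene Xpc (0.59 ± 0.21, adjusted p = 0.33) and the apoptosis gene Bid (0.50 ± 0.21, adjusted p = 0.43). The median of the list was 0.17. Without transition 1, 6 of its genes passed, namely Pmaip1, Fas, Plk3, Xpc, Bid and Apaf1, where 4.11% of all genes passed as higher.

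The DDR, which the labels describe as active in this state, acts through protein phosphorylation, which an array of RNA does not read. Of 29 measured DDR genes 0 passed by limma, and the median was -0.09. At an unadjusted p under 0.05, 0 were higher and 2 lower (6.65% and 3.81% of all genes). Atm, the kinase that senses breaks, stood at 7.30, 8.10, 8.25 and 8.02 in transition and 8.74, 7.94, 8.83 and 8.55 in wild type (-0.60 ± 0.26, adjusted p = 0.44). Chek1, the checkpoint kinase of replication stress, overlapped as well (-0.28 ± 0.24, adjusted p = 0.74). Brca2, a repair gene, lay lower in every transition array (-0.56 ± 0.23, adjusted p = 0.41). Rad17 of this list passed as higher without transition 1, where 4.11% of all genes did.

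Cell cycle genes had lower medians without any passing by limma. In the G1/S and replication list 27 of 31 were lower, with a median of -0.20, and in the G2/M list 29 of 31, with a median of -0.33. At an unadjusted p under 0.05, 1 and 2 of them were lower, against 3.81% of all genes. Mki67, the proliferation antigen Ki-67, stood at 14.14, 14.33, 14.18 and 13.79 in transition and at 14.20, 13.92, 14.58 and 14.63 in wild type, so that the groups overlapped (-0.22 ± 0.21, adjusted p = 0.78). Nek2, a centrosome kinase (-0.68 ± 0.30, adjusted p = 0.45), and Cdk1, the mitotic kinase (-0.37 ± 0.22, adjusted p = 0.58), overlapped too. Transition 4 was the lowest transition array in both lists, at -0.71 and -0.81 relative to wild type, where the other 3 lay between -0.22 and 0.01. Wild type itself split, with wild type 1 and 2 at -0.25 to -0.46 and wild type 3 and 4, the arrays with high Xist, at 0.28 to 0.43. Without transition 4 the medians were -0.03 and -0.13, and with Xist-high arrays only they were -0.61 and -0.69.

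Of 20 CDK inhibitor and senescence genes 0 passed by limma, with a median of 0.04. At an unadjusted p under 0.05, 4 were higher and 1 lower (6.65% and 3.81% of all genes). Cdkn2a, which encodes p16 and Arf, was at background in both groups, 6.39, 5.67, 6.17 and 5.92 against 5.91, 6.12, 5.95 and 6.02 (0.04 ± 0.15, adjusted p = 0.95). Cdkn2d lay below wild type in each transition array (-0.37 ± 0.11, adjusted p = 0.21), and Cdkn2c had 0.49 ± 0.18 (adjusted p = 0.35). Glb1, the lysosomal galactosidase behind the usual senescence stain, overlapped (0.41 ± 0.18, adjusted p = 0.45). Rbl2 of this list passed as higher without transition 1, where 4.11% of all genes did. Trp53 is not among the genes read here. Interferon-induced genes, 27 in all, gave 0 past the threshold by limma, with a median of -0.14. At an unadjusted p under 0.05, 4 were lower, against 3.81% of all genes. Rsad2, an antiviral gene (-1.10 ± 0.32, adjusted p = 0.21), and Ifit1 (-1.36 ± 0.44, adjusted p = 0.29) overlapped, Ifit1 through wild type 1, which at 7.16 was below all transition arrays. Ifit1 passed without wild type 1 (-1.96, adjusted p = 0.0039) and Rsad2 without transition 1 (-1.32 ± 0.32, adjusted p = 0.0327). Rsad2 stood at 14.20, 13.85, 13.50 and 12.54 in transition 1 to 4. The interferon list mean did not follow it, at -0.64, 0.04, -0.18 and 0.05 relative to wild type.

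B lineage genes made up much of the fall. Of 14 measured markers of B cell precursors 6 passed, all lower, and of 13 mature B cell markers 4 passed, all lower, against 0.234% of all genes, with medians of -1.30 and -1.63. In bulk tissue, fewer cells of a type and less RNA per cell cannot be told apart. Vpreb1, which encodes a subunit of the pre-B cell receptor's surrogate light chain, stood at 6.88, 6.39, 6.75 and 5.88 in transition 1 to 4 and at 9.93, 9.30, 9.73 and 10.73 in wild type 1 to 4. The transition values were at background and the groups 2.41 apart, with a difference of -3.45 ± 0.43 (10.9-fold, adjusted p = 0.00165). Igll1, the other part of the surrogate light chain, stood at 7.62, 7.28, 7.31 and 7.83 against 9.00, 8.52, 9.10 and 9.85 (-1.60 ± 0.28, adjusted p = 0.0165). Its second, dimmer probe set gave -0.13 ± 0.16. Rag1, the recombinase that joins receptor segments, stood at 6.24, 5.25, 5.98 and 5.26 against 9.87, 7.25, 8.99 and 9.87, with wild type 2 well below the other controls (-3.31 ± 0.65, adjusted p = 0.042).

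The factors that build the lineage were lower too. Ebf1, which commits progenitors to the B lineage, stood at 6.94, 6.44, 6.01 and 7.25 in transition and 9.78, 8.09, 9.04 and 9.21 in wild type (-2.37 ± 0.39, adjusted p = 0.0145), and its other 2 probe sets gave -1.51 ± 0.29 and -2.31 ± 0.35. Foxo1, needed for receptor recombination, stood at 9.26, 9.61, 9.26 and 9.37 against 10.31, 9.67, 10.51 and 10.21. Its groups were separated by 0.06 only, at wild type 2 (-0.80 ± 0.16, adjusted p = 0.0427). Blnk, the adaptor of pre-B receptor signalling, had -1.33 ± 0.26 (adjusted p = 0.0427). Among mature B cell genes, Bach2, a repressor of plasma cell fate, stood at 7.06, 7.15, 7.35 and 7.16 against 9.59, 8.38, 9.51 and 9.52, a difference of -2.07 ± 0.27 (adjusted p = 0.00238). Fcrla, an Fc receptor-like protein of B cells, had -2.10 ± 0.29 (adjusted p = 0.00304), and Fcer2a, the IgE receptor CD23, -1.63 ± 0.29 (adjusted p = 0.0181). Spib, an ETS factor of B and plasmacytoid dendritic cells, stood at 9.76, 7.81, 8.05 and 8.06 against 11.47, 10.11, 11.22 and 11.01 (-2.53 ± 0.44, adjusted p = 0.0166). Transition 1 stood well above the other transition arrays in Spib. Cr2, the complement receptor of B cells, did not pass (-1.37 ± 0.30, adjusted p = 0.065).

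**Figure D4:**
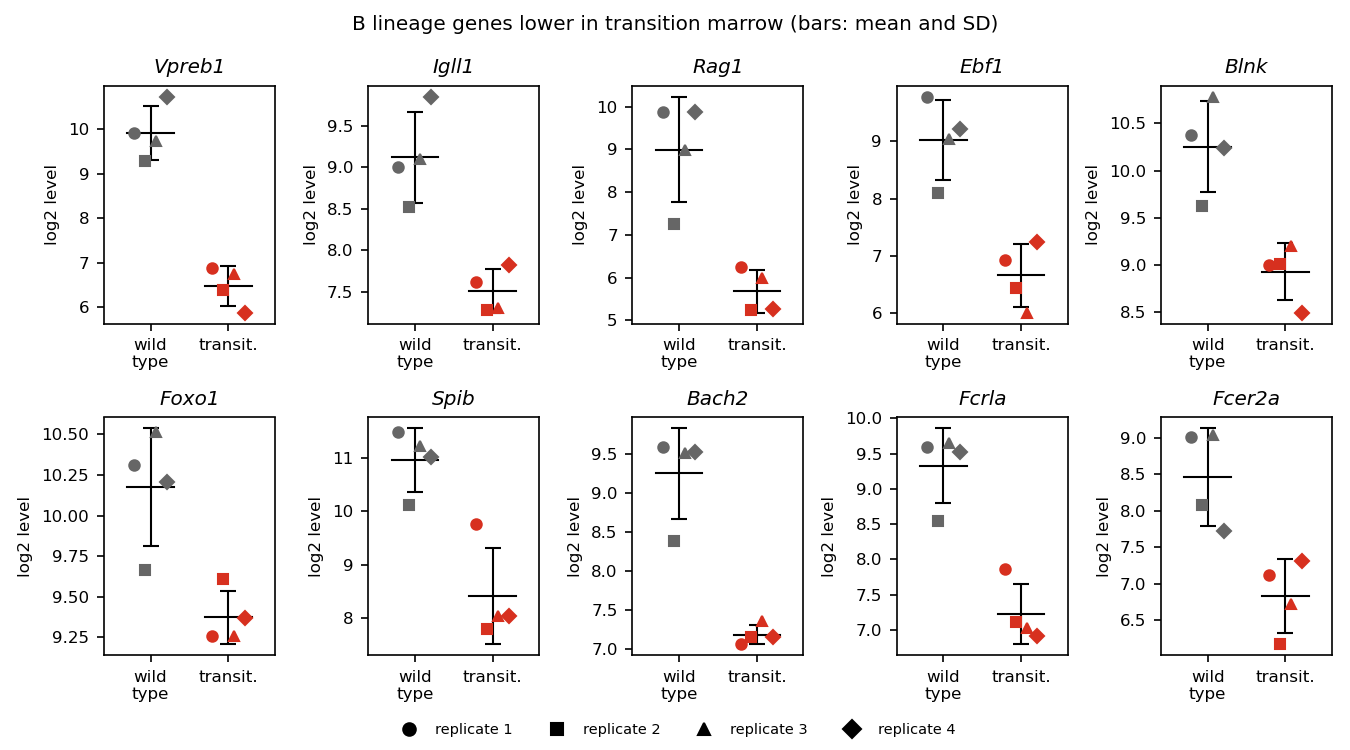
Log2 level (y axis) of the 6 precursor and 4 mature B cell markers past the threshold in wild-type and transition marrow (x axis), 4 arrays each, with symbols for the replicate number and bars for the mean and SD. No panel overlaps. Wild type 2 is the lowest wild-type array in 9 of the 10 panels, and in Spib transition 1, at 9.76, is 0.35 below it.

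Vpreb1, Bach2 and Fcrla kept their call in each of the 8 fits with 1 array left out. Rag1, Spib, Blnk and Foxo1 missed it without transition 2, 3 or 4 or wild type 1, 3 or 4. Ebf1 missed it without transition 3 or wild type 3 or 4, Igll1 without transition 2 or 3 or wild type 3 or 4, and Fcer2a without transition 2 or 3 or wild type 1 or 3. Adjusted p in these fits reached 0.16 for Rag1, 0.17 for Blnk, 0.17 for Foxo1 and 0.0563 to 0.0775 for the others. The lists as a whole kept negative medians throughout, and without transition 1 the counts were 10 of 14 and 11 of 13, all lower, with 1.24% of all genes lower there. By array, the precursor list stood at -0.99 in transition 1 relative to the wild-type mean and at -1.59 to -1.66 in the others, and wild type 2 at -0.71. For the mature list it was -0.82, -1.64 to -1.89 and -0.74, so that transition 1 and wild type 2 lay side by side. Without wild type 2 the list medians were -1.53 and -1.86.

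Windows before the starts of the surrogate light chain genes are shown because Vpreb1 had the largest fall of the 52 genes and Igll1 lies beside it on chromosome 16. Both are known targets of EBF1, whose letters CCCNNGGG read the same on both strands, and capitals mark matches. On GRCm38.p6, Vpreb1 lies at chr16:16869256-16869505 and Igll1 at chr16:16863986-16864235, both on the reverse strand.
Vpreb1: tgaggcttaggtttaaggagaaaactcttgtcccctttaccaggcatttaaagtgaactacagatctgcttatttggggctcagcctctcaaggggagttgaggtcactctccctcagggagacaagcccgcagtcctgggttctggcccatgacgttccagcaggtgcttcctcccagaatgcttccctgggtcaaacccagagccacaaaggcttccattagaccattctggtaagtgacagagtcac
Igll1: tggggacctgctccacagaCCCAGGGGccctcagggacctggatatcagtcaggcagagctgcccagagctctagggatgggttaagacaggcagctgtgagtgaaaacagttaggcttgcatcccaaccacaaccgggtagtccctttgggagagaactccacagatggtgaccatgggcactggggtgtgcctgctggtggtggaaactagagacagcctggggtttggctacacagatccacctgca
The Vpreb1 window held 0 matches and the Igll1 window 1, beginning at position -231 from the start. The letters were in the windows of 7 of 20 fallen genes with one (35.0%: Foxo1, Cd55, Cnn3, Ablim1, Igll1, Cd5l and Spib), of 3 of 18 risen genes (16.7%) and of 17.8% of all 9888 genes with a window. The difference between these shares was not tested, and the matches describe letters, not binding. Of the 52 genes 38 had a window.

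Other lymphoid and plasma markers did not pass. Of 9 plasma cell, 7 MHC class II, 15 T cell and 12 NK cell markers 0 did by limma. At an unadjusted p under 0.05 in either direction the counts were 1, 0, 4 and 3 (10.5% of all genes). Medians were -0.05, 0.14, -0.17 and -0.34. Irf4, a factor of plasma and activated B cells, had -0.79 ± 0.27 (adjusted p = 0.30), and Xbp1, which drives antibody secretion, 0.27 ± 0.15 (adjusted p = 0.57). Cd3d, part of the T cell receptor complex, had 0.65 ± 0.25 (adjusted p = 0.39). In the T cell list 10 of 15 genes were lower, 3 of them at an unadjusted p under 0.05 (3.81% of all genes). These were Cd2 (-0.78 ± 0.34), Cd8a (-0.47 ± 0.19) and Cd8b1 (-0.48 ± 0.21). Of the NK genes 9 of 12 were lower, among them Klrd1 (-0.61 ± 0.21, adjusted p = 0.31), Gzma (-0.77 ± 0.49) and Tbx21 (-0.48 ± 0.28). Cd244a, a receptor also found on myeloid cells, was above wild type in all transition arrays (1.10 ± 0.29, adjusted p = 0.16), and Gzmb, a cytotoxic granule protease, too (1.10 ± 0.36, adjusted p = 0.29). Cd244a passed without transition 1 (1.20 ± 0.31, adjusted p = 0.0436), where 4.11% of all genes passed as higher. Ly6d, which marks early B and plasmacytoid dendritic cells, lay below wild type in all 4 (-1.36 ± 0.29, adjusted p = 0.0595). It passed without transition 1 (-1.68 ± 0.22, adjusted p = 0.0023), where 1.24% of all genes passed as lower.

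Cd5l, which tissue macrophages secrete, fell strongly, from 10.04, 9.31, 9.73 and 9.90 in wild type to 8.24, 6.86, 7.05 and 7.37 in transition. The groups were 1.07 apart (-2.37 ± 0.28, 5.16-fold, adjusted p = 0.00096), and the call held whichever array was left out. Of 17 macrophage markers it was the 1 past the threshold, where 0.234% of all genes passed as lower. At an unadjusted p under 0.05, 3 of them were higher and 6 lower (6.65% and 3.81% of all genes). The list had 12 lower members and a median of -0.68, which was -0.20 with Xist-high arrays only. The list did not move as one, since Adgre1, a classical macrophage surface antigen, stood at 11.24, 12.16, 12.22 and 12.22 in transition and 11.21, 10.86, 10.92 and 10.66 in wild type (1.05 ± 0.22, adjusted p = 0.065). Cd68 had 0.94 ± 0.26 (adjusted p = 0.19). Both passed without transition 1, Adgre1 at 1.29 ± 0.18 (adjusted p = 0.00298) and Cd68 at 1.19 ± 0.23 (adjusted p = 0.0166). In that fit 4.11% of all genes passed as higher. The mannose receptor gene Mrc1 (-0.94 ± 0.35) and the adhesion gene Vcam1 (-0.76 ± 0.28), of resident macrophages and stroma, had adjusted p of 0.35 and 0.35.

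Monocyte markers were on average higher in transition 2, 3 and 4 and not in transition 1. Of 13 measured members 0 passed by limma, all 13 had a positive difference, and the median was 0.45. At an unadjusted p under 0.05, 6 were higher, against 6.65% of all genes. Relative to the wild-type mean the list stood at -0.13 in transition 1 and at 0.78 to 0.79 in transition 2, 3 and 4, with wild type between -0.18 and 0.15. Cx3cr1, the fractalkine receptor, stood at 10.08, 11.79, 11.32 and 11.59 in transition and 9.88, 9.87, 10.02 and 9.49 in wild type (1.38 ± 0.42, adjusted p = 0.23). Fn1, fibronectin, stood at 13.20, 14.30, 14.20 and 14.14 against 13.66, 13.12, 12.96 and 13.05 (0.76 ± 0.25, adjusted p = 0.29). In both transition 1 was near the wild-type values. Cd14, also of this list, differed, since transition 1 stood at 11.20 there, above wild type at 9.15 to 10.08. Csf1r, the receptor of macrophage growth factor, had 0.61 ± 0.18 (adjusted p = 0.21) and Ms4a6c 0.70 ± 0.24 (adjusted p = 0.31). Without transition 1, 6 of 13 passed, all higher, where 4.11% of all genes were higher, among them Cx3cr1 (1.75 ± 0.38), Csf1r (0.79 ± 0.15), Fn1 (1.02 ± 0.21) and Ms4a6c (0.97 ± 0.18). The receptor list, which shares 4 genes with this one, stood at -0.10 in transition 1 and 0.51 to 0.55 in the others.

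Neutrophil genes were high in both groups. Of 17 late neutrophil and 6 primary granule markers 0 passed by limma, and the medians were 0.15 and 0.06. At an unadjusted p under 0.05, 3 and 0 were higher, against 6.65% of all genes. Mpo (0.03 ± 0.12), the proteinase 3 gene Prtn3 (0.05 ± 0.18) and the elastase gene Elane (0.24 ± 0.31) had adjusted p of 0.96, 0.95 and 0.85. The most abundant of them lie near the top of the scale, where differences can be compressed. Trem1, an amplifier of myeloid inflammation, was above wild type in all 4 transition arrays, at 8.54, 8.63, 9.12 and 8.61 against 7.75, 8.02, 7.66 and 7.75 (0.93 ± 0.29, adjusted p = 0.25). Clec4d, a fungal pattern receptor, had 0.57 ± 0.17 (adjusted p = 0.24) and passed without transition 1 (0.75 ± 0.14, adjusted p = 0.0153).

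Erythroid and platelet genes were mostly lower without passing. Of 29 erythroid markers 27 had a negative difference, and 0 passed by limma, with a median of -0.84. At an unadjusted p under 0.05, 4 were lower, against 3.81% of all genes. Alas2, the first enzyme of haem synthesis in red cells, stood at 14.24, 13.22, 13.09 and 11.23 in transition and at 14.11, 13.61, 14.37 and 14.69 in wild type (-1.25 ± 0.48, adjusted p = 0.38). Trim10, a red cell maturation gene, stood at 14.06, 12.70, 12.47 and 10.62 against 13.37, 13.11, 14.18 and 14.25 (-1.26 ± 0.54, adjusted p = 0.43). The transition arrays ran from wild-type levels in transition 1 to far below them in transition 4. The list as a whole stood at 0.37, -0.36, -0.82 and -2.31 in transition 1 to 4, and between -0.56 and 0.56 in wild type. Without transition 4 its median was -0.29, and without transition 1 it was -1.24, with Alas2 and Trim10 past the threshold. In the fit without transition 1, 1.24% of all genes passed as lower.

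Megakaryocyte and platelet markers had a median of -1.60 over 15 genes, 13 of them lower, and 0 were past the threshold by limma. In 8 all transition arrays lay below all wild-type arrays, against 1.90% of all genes. At an unadjusted p under 0.05, 8 were lower and 1 higher (3.81% and 6.65% of all genes). Pf4, a platelet granule chemokine, stood at 10.91, 11.73, 11.65 and 10.39 in transition and at 12.93, 13.85, 12.54 and 12.99 in wild type (-1.91 ± 0.53, adjusted p = 0.19). Itga2b, the platelet integrin, stood at 9.75, 9.84, 10.55 and 8.67 against 11.90, 12.73, 11.00 and 10.73 (-1.88 ± 0.61, adjusted p = 0.28). Wild type 2 was the highest array in both. Ppbp (-1.97 ± 0.63, adjusted p = 0.28) and Clec1b, the podoplanin receptor (-2.21 ± 0.69, adjusted p = 0.26), showed like sizes. Relative to the wild-type mean the list lay between -1.67 and -0.81 in transition and between -0.64 and 1.08 in wild type, and its median without wild type 2 was -1.04. Marrow stroma markers, 13 genes with 0 past the threshold by limma and 0 at an unadjusted p under 0.05, varied between single arrays. Their mean ran from -0.93 to 1.01 in transition and from -1.21 to 1.53 in wild type, both highs in the arrays (transition 4 and wild type 2) that also had the highest Adipoq, an adipocyte hormone gene, at 11.39 and 11.69. The stroma median was -0.18, and without wild type 2 it was 0.27. Col1a1, a bone collagen, reached 11.03 in wild type 2 and at most 8.59 elsewhere among the 8 arrays. Whether bone fragments or fat entered any of the samples was not tested.

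**Figure D5:**
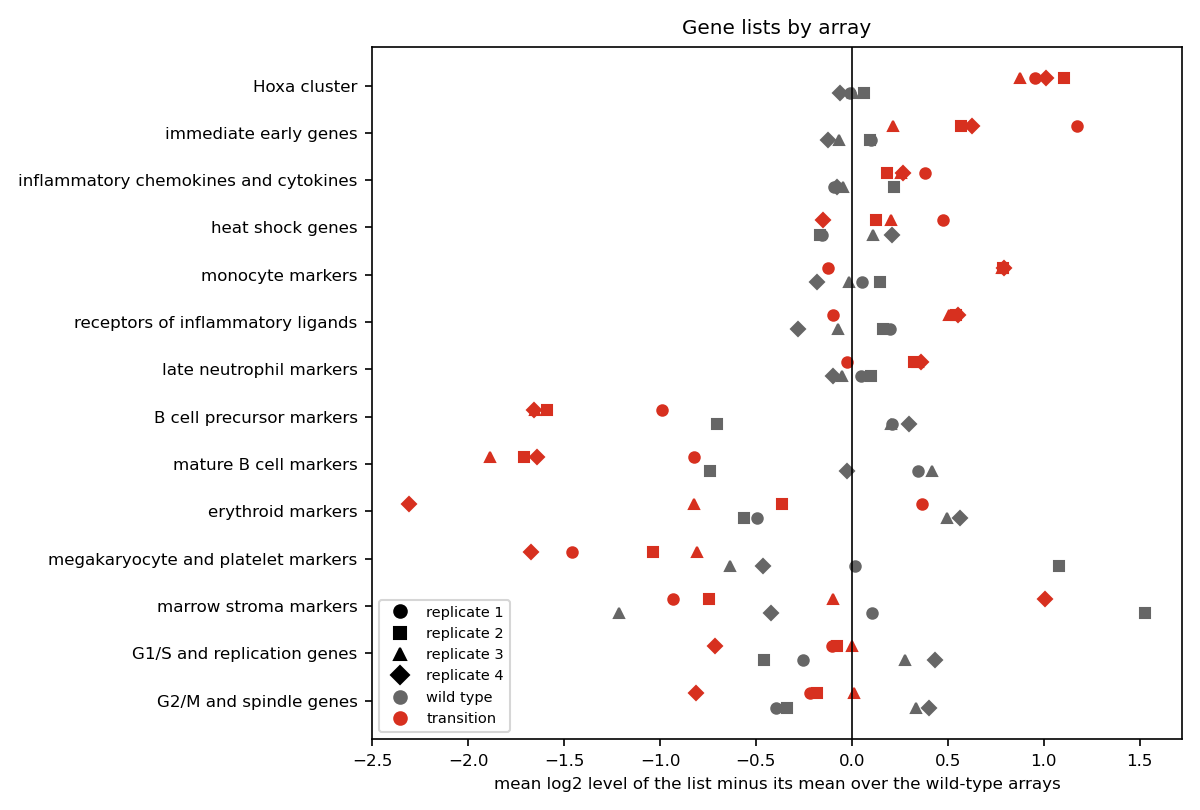
Mean log2 level of each of 14 gene lists in each array, minus the mean over the 4 wild-type arrays (x axis), for wild type (grey) and transition (red), with symbols for the replicate number. Transition 1 stands apart from the other transition arrays in monocyte (-0.13 against 0.78 to 0.79), receptor and B cell lists, and transition 4 in erythroid (-2.31) and cell cycle lists.

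Of 9 dendritic cell, 14 mast cell, basophil and eosinophil, 15 stem and progenitor, 10 endothelial and 18 adipocyte and muscle markers 0 passed by limma. Their medians were -0.05, -0.0042, 0.01, -0.35 and 0.06, and 4, 1, 2, 3 and 2 had an unadjusted p under 0.05 in either direction (10.5% of all genes). Without transition 1, Ly6d (dendritic) and Fcer1a (mast cell) passed as lower, and Meis1 (stem) and Pecam1 (endothelial) as higher. In that fit 1.24% of all genes passed as lower and 4.11% as higher.

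The remaining genes that rose belong to no list. Nrg4, a growth factor that binds the receptor ErbB4, stood at 8.59, 9.75, 10.55 and 9.69 in transition and at 6.96, 7.03, 7.23 and 7.22 in wild type. Its rise of 2.53 ± 0.34 (5.79-fold, adjusted p = 0.00273) held whichever array was left out. In proliferation it stood at 8.36, 9.00, 9.08 and 8.35 and in senescence at 8.13, 7.34 and 8.55. Ripk4, a kinase best known from epidermis, stood at 6.50, 8.19, 8.67 and 7.80 against 5.51, 5.12, 5.26 and 5.33 (2.48 ± 0.41, adjusted p = 0.0147). It was lowest in transition 1, and it missed the threshold without transition 2, transition 3, transition 4 or wild type 3 (adjusted p 0.0508 to 0.0582). The other Ripk4 probe set, which was dimmer, gave 0.45 ± 0.11. Depdc7, a DEP domain gene, stood at 7.78, 8.44, 8.87 and 8.77 against 6.74, 7.14, 6.90 and 7.10 (1.49 ± 0.21, adjusted p = 0.0035). Apoc2, the activator of lipoprotein lipase, stood at 9.83, 10.10, 10.79 and 10.25 against 8.95, 9.20, 8.74 and 8.30 (1.45 ± 0.25, adjusted p = 0.0167), and Lpl, the lipase itself, overlapped (0.62 ± 0.47, adjusted p = 0.71). Etv6, an ETS repressor that blood stem cells need, rose by 0.69 ± 0.14 (adjusted p = 0.04), the smallest rise past the threshold. Baz2b, a bromodomain gene (1.01 ± 0.17), Eml5, a microtubule binding protein (1.12 ± 0.19), Stxbp6, a syntaxin binding protein (1.08 ± 0.21), Cracr2b, a regulator of calcium entry (1.05 ± 0.17), and the adhesion gene L1cam (0.94 ± 0.16) completed the rise, with adjusted p of 0.0147, 0.0149, 0.042, 0.0109 and 0.0149. Of these genes Depdc7 kept its call in each fit with 1 array left out. Apoc2, Etv6, Baz2b, Eml5, Stxbp6, Cracr2b and L1cam lost it in 4, 7, 4, 5, 6, 1 and 4 of 8 such fits, wild type 3 among the arrays left out each time.

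Further genes that fell are outside the lists as well. Cmah, which makes the sialic acid Neu5Gc, stood at 7.84, 7.70, 7.36 and 7.69 in transition and at 9.42, 9.05, 9.00 and 8.82 in wild type, a difference of -1.43 ± 0.16 (adjusted p = 0.000493). Cnn3, an actin-binding calponin, stood at 10.05, 9.66, 10.07 and 9.56 against 11.02, 10.94, 11.31 and 11.43 (-1.34 ± 0.18, adjusted p = 0.00273), and its other 5 probe sets gave -1.48 to -0.61. Both calls held whichever array was left out. Akap12, a scaffold of protein kinase A, stood at 7.13, 7.14, 7.43 and 7.82 against 9.77, 8.50, 8.78 and 9.57 (-1.77 ± 0.30, adjusted p = 0.016). It lost its call in 4 of 8 fits with 1 array left out. Sit1, an adaptor of lymphocyte signalling (-0.99 ± 0.15, adjusted p = 0.00742), and Carmil1, a regulator of actin capping (-1.03 ± 0.17, adjusted p = 0.0121), kept their call whichever array was left out. Ablim1, an actin-binding LIM protein (-1.38 ± 0.27), was separated by 0.05 only, at wild type 2. The others were the kinase gene Sbk1 (-1.26 ± 0.25), Ralgps2, an exchange factor for Ral (-1.21 ± 0.21), Arhgap12 (-1.12 ± 0.21), Gspt2, a translation termination factor (-1.10 ± 0.21), Slc41a2, a magnesium transporter (-0.96 ± 0.17), and Ube2e2, a ubiquitin conjugase (-0.93 ± 0.16). Cd55, which protects cells from complement (-0.86 ± 0.17), Ryk, a Wnt receptor (-0.81 ± 0.16), and Adgrd1, an adhesion receptor (-0.60 ± 0.12), showed the smallest falls beside Foxo1. Adjusted p over Ablim1 and these 9 genes ran from 0.0149 (Ube2e2) to 0.0462 (Sbk1), and each of the 10 lost its call in at least 4 of 8 fits with 1 array left out. The 3 called rows not named so far are 1 antigen receptor segment and 2 placeholder genes, all lower.

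Agreement between probe sets could be read for 18 of the 52 genes, which had 28 further probe sets. All 28 differed in the direction of the brightest one, 22 with an unadjusted p under 0.05. The other 6 were dim sets of Arhgap12, Fcer2a, Foxo1, Igll1, L1cam and Ptgs2.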

How the data were processed

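RNA from whole marrow was hybridised to 1-colour Affymetrix mouse arrays. The values are log2 probe set summaries deposited by the authors, and RMA, affy and limma are named in the submitters' processing notes without versions. The log2 values were used as deposited, with no further normalization, and marrow arrays were not compared with spleen. Of 22690 probe sets 20393 carry 1 gene symbol in the platform annotation, 691 several and 1606 are not listed. Genes were read from the brightest probe set by mean over 15 marrow arrays. A means model of 4 marrow groups was fitted over all 12394 genes with limma 3.58.1 (R 4.3.3, lmFit and eBayes, Benjamini-Hochberg adjustment, threshold 0.05), which gave the adjusted p-values, and those said to be without an array came from the same model refitted without it. Groups were taken from the array titles. The code was tested on simulated data. The number of arrays limits the precision.

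Genes named were all called genes except placeholders and antigen receptor segments, up to 5 genes of smallest p per list, a fixed set of genes of the fusion, senescence and inflammation, and the 5 of smallest p in each comparison between fusion states. Ccl6, Il1rn, Il15, Csf2ra, Csf3r, Tlr6, Fas and Apaf1, outside this rule, are named to complete counts and were chosen after their values were seen. The members, lists and rules were chosen with earlier results of these data known. Of 663 list genes 576 were measured. Alternatives covered filtering, probe sets, normalization, arrays in the fit, spread estimate, weights, blocks and covariates. Promoter windows were taken from RefSeq (GRCm38.p6).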

Additional observations from a re-analysis of the deposited data

Results flagged for a closer look

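Single arrays were set apart from the other 3 of their group where the gap to the nearest relative to the group's range exceeded Dixon's 95% critical value, which chance gives in about 1 of 20 groups. Among 256 groups of gene values and 66 of list means, 33 such values were found. Transition 1 was the highest of its group in Ccl3 (11.21), Cd8a (7.65) and Spib (9.76). Transition 1 was the lowest of its group in Adgre1 (11.24), Ccl9 (12.77), Cd68 (11.63), Clec4d (12.83), Fn1 (13.20), Hpgd (12.83) and Ms4a6c (11.96). Transition 2 was the highest of its group in Hoxa10 (10.19). Transition 2 was the lowest of its group in Carmil1 (5.62). Transition 3 was the highest of its group in Cdkn2d (11.52) and Trem1 (9.12). Transition 3 was the lowest of its group in Ier5 (12.15). Transition 4 was the lowest of its group in Nek2 (8.56). Wild type 1 was the highest of its group in Jmjd1c (11.99). Wild type 1 was the lowest of its group in Tnf (8.02). Wild type 2 was the highest of its group in Col1a1 (11.03) and Lpl (12.43). Wild type 2 was the lowest of its group in Bach2 (8.38), Fcrla (8.54) and Irf4 (8.79). Wild type 4 was the lowest of its group in Ptgs2 (4.73).

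Among list means, transition 1 was the highest for B cell precursor markers (8.16). Among list means, transition 1 was the lowest for receptors of inflammatory ligands (10.48), NF-kB factors, inhibitors and targets (9.80), late neutrophil markers (13.38) and monocyte markers (11.76). Among list means, transition 4 was the lowest for G1/S and replication genes (10.73). Among list means, wild type 1 was the lowest for interferon-induced genes (9.75). Among list means, wild type 2 was the highest for inflammatory chemokines and cytokines (8.02). Among list means, wild type 2 was the lowest for B cell precursor markers (8.44). Values are log2 levels.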

How the results depend on the processing

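The count of 52 genes in transition against wild type was 49 with the mean of all probe sets, 49 after quantile normalization, 51 with centred arrays and 50 with trend and robust settings. It was 14 among genes above the median level, where fewer genes were tested, and 33 with only the 2 groups compared, where fewer arrays were. It was 19 with the Gapdh difference as a covariate, 32 with the Xist level as a covariate, 62 in Xist-high arrays only and 1979 with array weights. The cause was not tested. With 1 array left out it ran from 21 to 664. With the replicate number as a block it was 33, of which 32 were among the 52. The numbers do not pair the arrays, since correlations of same-numbered deviations ran from -0.43 to -0.07 and 0 transition arrays correlated best with their own number. Transition against proliferation gave 3 genes with array weights and 0 in the other settings, and senescence against transition 0 in every setting run. No named gene past the threshold changed direction. Of the 52 genes, 19 kept their call in all 8 fits with 1 transition or wild-type array left out. Of those, 16 also kept it in every other setting that included them. Of 199 named genes, 36 of those past the threshold missed it in some setting and 71 others passed in some. Of 33 list medians 14 changed sign in some setting, among them those of the DNA damage response, heat shock, prostaglandin, interferon and stroma lists. Centring and quantile normalization shifted the median of all genes by -0.015 and -0.020. Signal near background limits the dim genes.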
